A study of Mus musculus with 9 samples.

Results

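The genes described here are 10 markers of cell senescence and of the p53 pathway, Cdkn1a, Cdkn2a, Cdkn2b, Cdkn1b, Cdkn2c, Trp53, Mdm2, Ccng1, Glb1 and Lmnb1, chosen by gene symbol from the 22322 genes of the deposited expression table. Their mRNA was measured by RNA sequencing in 9 libraries of wild-type mouse cells labelled retinal ganglion cells (RGCs), with 3 libraries per group. Normal RGCs were grown in complete medium, aging RGCs received D-galactose at 30 mg/mL, a sugar load used to age cells in culture, and aging RGCs + USCs medium received D-galactose and medium conditioned by human urine-derived mesenchymal stem cells (USCs). The cells were bought from a supplier, and each group was sequenced as 3 replicated wells. Nothing in the sources says that the wells came from separate cultures, so the p-values measure the spread between wells, which may be technical. The comparison of aging with normal RGCs asks whether the markers moved under D-galactose, and that of aging RGCs + USCs medium with aging RGCs asks whether they moved again in the conditioned medium. The paper grew the USCs in a special stem cell medium, and no sequenced group received that medium unconditioned. Effects of the base medium and of its conditioning by USCs therefore cannot be told apart here.

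Senescence is a lasting stop of the cell cycle. It is enforced by inhibitors of cyclin-dependent kinases (CDKs), which keep the RB proteins active and so hold cells before S phase. The p53 protein, encoded by Trp53, is a transcription factor that switches on Cdkn1a (p21), Mdm2, Ccng1 and many other genes after DNA damage and other stress, and MDM2 in turn marks p53 for degradation. Cdkn2a encodes p16INK4a and p19ARF, Cdkn2b encodes p15INK4b, Cdkn2c encodes p18INK4c and Cdkn1b encodes p27KIP1. Senescent cells are commonly recognised by lysosomal beta-galactosidase activity, the product of Glb1, and by loss of lamin B1, a protein of the nuclear lamina encoded by Lmnb1. Much of p53 activity is set by protein stability and modification, and beta-galactosidase staining is an enzyme assay, neither of which mRNA levels measure.

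Because p53 acts through DNA, the sequences upstream of the p53 pathway members are shown first, with every p53 half-site in capitals. The half-site is the 10-base consensus bound by a p53 dimer, and its standard consensus reads the same on both strands. It was searched in windows from 250 bases before to 50 bases after the start. The sequences are from RefSeq on GRCm38.p6 and run 5′ to 3′ on the gene's strand, from 250 to 31 bases before the annotated start. They lie at chr10:117710789-117711008 on the minus strand for Mdm2, chr11:40755317-40755536 on the minus strand for Ccng1 and chr17:29090729-29090948 on the plus strand for Cdkn1a.
Mdm2: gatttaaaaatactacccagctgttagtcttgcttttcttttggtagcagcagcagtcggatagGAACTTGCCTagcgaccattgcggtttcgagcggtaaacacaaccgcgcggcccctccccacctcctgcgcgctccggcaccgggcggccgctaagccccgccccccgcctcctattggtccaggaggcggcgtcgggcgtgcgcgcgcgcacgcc
Ccng1: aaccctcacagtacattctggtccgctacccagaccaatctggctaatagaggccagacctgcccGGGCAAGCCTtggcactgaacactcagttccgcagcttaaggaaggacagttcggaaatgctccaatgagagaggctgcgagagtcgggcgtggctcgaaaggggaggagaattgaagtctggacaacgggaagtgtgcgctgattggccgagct
Cdkn1a: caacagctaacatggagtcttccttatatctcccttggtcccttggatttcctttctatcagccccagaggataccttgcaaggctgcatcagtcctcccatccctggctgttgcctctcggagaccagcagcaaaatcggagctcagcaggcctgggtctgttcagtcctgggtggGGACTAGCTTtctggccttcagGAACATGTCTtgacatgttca
For Trp53, whose upstream window overlaps exons of Wrap53, the half-site on chromosome 11 at 69580284 to 69580293 is shown with its flanks.
Trp53: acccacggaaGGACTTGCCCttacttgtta
The Mdm2 site lies 186 bases before the start, the Ccng1 site 185, the Trp53 site 75, and the 2 Cdkn1a sites 73 and 51. A second annotated Cdkn1a start, with upstream bases at chr17:29093519-29093738 that are not printed here, had 0 half-sites in its window. A half-site was found in a window of 4 of the 9 members that have one, or 44.4%, against 9.55% of all 26994 genes with a window. Lmnb1 has no entry in the sequence table. A list of 35 p53 target genes was made from general knowledge, but with earlier results of these data known. Of these 26 had a window and 7 of those held a half-site, namely Aen, Bax, Ckap2, Ei24, Gadd45a, Polk and Sesn1. A match describes these letters and does not show binding.

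The libraries held 18189610 to 22342283 counts, and 12145 genes passed the low-count filter. Levels are given as CPM (counts scaled to a common library size with TMM factors). A gene was called changed where the quasi-likelihood test of edgeR gave a p under 0.05 after Benjamini-Hochberg adjustment over all genes tested. The members and the gene lists below were chosen with earlier results of these data known, so their called shares are descriptive. Most markers of the labelled cell type were low or absent, but not all. Of 12 markers of retinal ganglion cells, 4 reached 1 CPM, namely Rbpms, Nefl, Isl1 and Tubb3. Rbpms had group means of 61.2, 49.6 and 47.99 CPM in normal, aging and medium-treated RGCs, and Isl1 had 18.9, 11.95 and 13.04 CPM. Pou4f2 and Pou4f3, transcription factors used as markers of these neurons, had 0 counts in every library, and the related Pou4f1 had 2 to 27 counts per library. The 12 summed to 143 to 154 CPM in normal, 102 to 105 CPM in aging and 96.5 to 104 CPM in medium-treated libraries, but the members of that sum went opposite ways in the medium, where Nefl, a neurofilament, stood at 17.3 against 38.4 CPM in aging RGCs and Tubb3, a neuronal tubulin, at 21.2 against 2.59 CPM. Summed levels of 8 mesenchymal markers were 3130 to 3220, 3030 to 3100 and 2610 to 2720 CPM in the same order. Vim, vimentin, made up most of that sum and was higher in aging RGCs, while the other 4 tested were lower, with Fn1, fibronectin, at group means of 1002, 653 and 465 CPM and Col3a1, a collagen, at 447, 389 and 235 CPM. Those of 8 epithelial markers, of which 3 reached 1 CPM, were 694 to 777, 805 to 819 and 981 to 1020 CPM. Here too the members went opposite ways. Krt8, a keratin, had group means of 410, 560 and 714 CPM, and Krt18, another keratin, had 321, 252 and 281 CPM. Macrophage markers summed to 64.9 to 74.9, 52.2 to 57.1 and 33.2 to 57.8 CPM, mostly Cd68. Of the 9 tested, 6 were called lower by 2-fold or more in aging RGCs. Of all genes, 2.65% were called with a change of that size in either direction. Adgre1, among the 6, had 57, 19 and 43 counts in normal and 2, 0 and 1 in aging libraries. Over the alternative settings listed at the end, at the adjusted p alone, 2 to 7 macrophage markers were called lower. Medium-treated replicate 3 stood apart from the other medium-treated libraries in these genes, with 241 counts of Lyz2, a lysozyme, against 45 and 20, and 15 counts of C1qb, a complement subunit, against 0 and 0. Leaving that library out changed no call of the 10 genes described here. The part of these markers in the results below was not tested, and in such bulk samples fewer cells of a type and less RNA per cell cannot be told apart.

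In aging against normal RGCs, 8 of the 10 members could be tested, and the other 2, Cdkn2a and Cdkn2b, had 0 counts in every library. Ccng1, Cdkn2c, Trp53 and Lmnb1 were higher in aging RGCs and Cdkn1b was lower, while Cdkn1a, Mdm2 and Glb1 were not called. That is 5 of 8, or 62.5%, where 46.5% of all genes tested were called, 23.6% higher and 23.0% lower. Aging and normal libraries were apart, with no overlap, for these 5, as for 53% of all genes. Ccng1 alone of the 8 was called with a change of at least 2-fold, as were 2.65% of all genes. The median log2 fold change of the 8 was 0.13, and that of all genes tested was 0.0019.

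In aging RGCs + USCs medium against aging RGCs, Lmnb1 was higher and Cdkn1a, Cdkn2c, Trp53, Ccng1 and Glb1 were lower, while Cdkn1b and Mdm2 were not called. That is 6 of 8 members, or 75%, against 53.1% of all genes tested, of which 27.1% were higher and 26.0% lower. The groups did not overlap for these 6, as for 59.8% of all genes. No member changed by 2-fold, as 5.44% of all genes did, and the median log2 fold change of the 8 was -0.20, against -0.0067 over all genes. Against normal RGCs, aging RGCs + USCs medium had higher Ccng1 and Lmnb1 and lower Cdkn1a, Cdkn1b and Glb1, 5 of 8 members or 62.5% against 60.5% of all genes, of which 30.6% were higher and 29.9% lower. The groups did not overlap for these 5, as for 63.8% of all genes, and none changed by 2-fold, as 6.72% of all genes did. Cdkn2c, Trp53 and Mdm2 were not called there, and the median of the 8 was 0.03, against -0.013 over all genes. The comparisons share libraries, so they are not independent of each other.

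**Figure D1:**
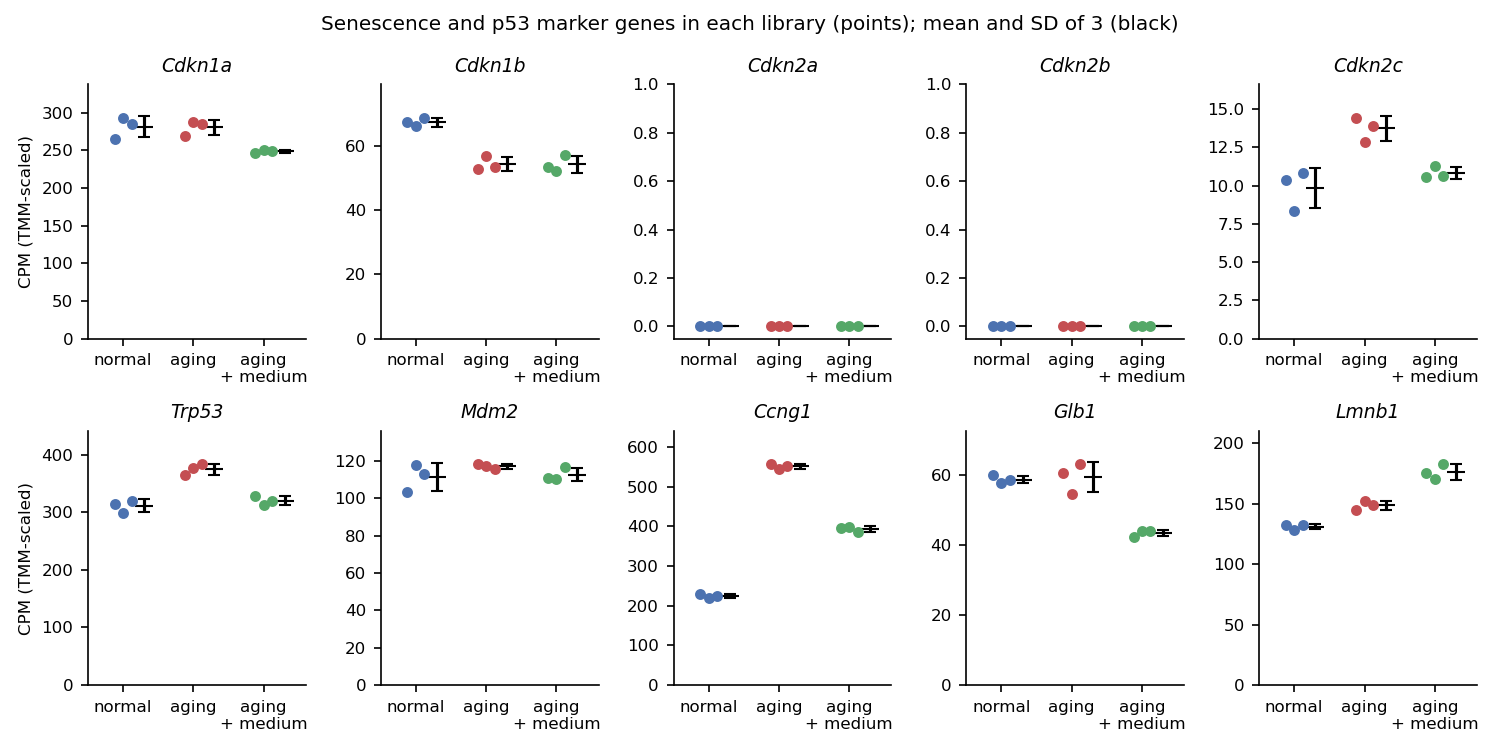
CPM of each of the 10 members in each library (points) with the mean and SD of 3 libraries (black bars), by group. Cdkn2a and Cdkn2b sit at 0 throughout, Ccng1 separates all groups (normal RGCs 218 to 229.8 CPM, aging RGCs 543 to 557 CPM), and Cdkn1a is level between normal and aging RGCs.

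Among the regulators of the pathway, Trp53 on chromosome 11 (GRCm38, 69580359 to 69591873) stood at 315, 299 and 320.2 CPM in the normal libraries, 365, 376 and 384 CPM in the aging libraries and 329, 313 and 319 CPM in the medium-treated libraries. All aging values lay above all others, and the normal and medium-treated values overlapped. The level rose by 1.2-fold in aging RGCs (log2 fold change 0.27, standard error 0.034, adjusted p = 2.21e-07 by edgeR) and was 1.17-fold lower in the medium than in aging RGCs (log2 fold change -0.23, standard error 0.034, adjusted p = 2.35e-06 by edgeR). Between medium-treated and normal RGCs the log2 difference was 0.041, with a 95% interval of -0.029 to 0.11.

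Mdm2, the ubiquitin ligase that both restrains p53 and is one of its targets, lies on chromosome 10 from 117688875 to 117710758. Its values were 103, 118 and 113 CPM in normal RGCs, 118, 117 and 116 CPM in aging RGCs, and 111, 110.3 and 117 CPM in aging RGCs + USCs medium. The groups overlapped in every comparison. The log2 fold change was 0.076 for aging against normal RGCs, with a 95% interval of -0.015 to 0.17 and an adjusted p of 0.16 by edgeR, and -0.057 for the medium against aging RGCs, with an interval of -0.15 to 0.034 and an adjusted p of 0.29 by edgeR. Normal replicate 2 was the highest normal library, and without it Mdm2 was called higher in aging RGCs (log2 fold change 0.12, adjusted p = 0.034 by edgeR). Scaled by library totals without TMM factors, Mdm2 was called lower in the medium than in aging RGCs (log2 fold change -0.14, adjusted p = 0.0118 by edgeR), as it was in limma on FPKM, at -0.13 and -0.14 for the added constants 1 and 0.1.

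Ccng1, on chromosome 11 from 40748552 to 40755311, encodes cyclin G1, a p53 target that brings a phosphatase to MDM2. It was measured at 229.8, 218 and 225 CPM in normal RGCs, at 557, 543 and 553 CPM in aging RGCs and at 396, 398 and 386 CPM in aging RGCs + USCs medium. The 3 groups did not overlap, and the spread within each was small, with means of 224 ± 5.92, 551 ± 6.77 and 393 ± 6.46 CPM (SD, n = 3). Aging RGCs had 2.46-fold more than normal RGCs (log2 fold change 1.30, standard error 0.032, adjusted p = 2.35e-22 by edgeR), and 200 of the genes tested changed by more in either direction. In the medium the level was 1.4-fold lower than in aging RGCs (log2 fold change -0.49, standard error 0.031, adjusted p = 2.23e-13 by edgeR) but still 1.75-fold above normal RGCs (a log2 change of 0.81, edgeR adjusted p = 4.33e-18).

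Cdkn1a, the p53 target whose p21 protein stops the cycle through CDK2, lies on chromosome 17 from 29090976 to 29100727. Its values were 266, 293 and 285 CPM in normal RGCs, 269.7, 288 and 285 CPM in aging RGCs, and 246, 249.9 and 249.8 CPM in aging RGCs + USCs medium. Normal and aging values overlapped throughout, while the medium-treated values lay below every other library. For aging against normal RGCs the log2 fold change was -0.0030, with a 95% interval of -0.078 to 0.072 and an adjusted p of 0.96 by edgeR. The medium-treated level was 11.5% lower than in aging RGCs (log2 fold change -0.18, standard error 0.037, adjusted p = 0.000223 by edgeR) and 11.7% lower than in normal RGCs (adjusted p = 0.000136 by edgeR). Cdkn1a shares 273 exonic bases with an unnamed transcript on the other strand that is not among the genes analysed here.

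**Figure D2:**
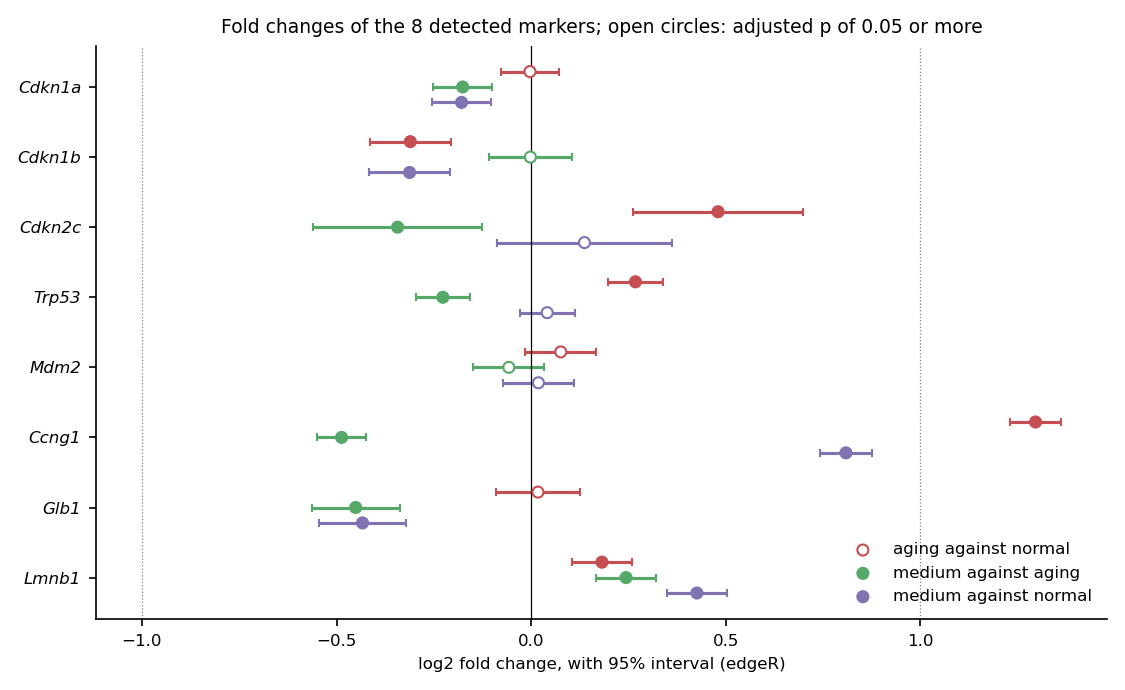
Log2 fold change with its 95% interval from edgeR for the 8 tested members in each comparison, with open circles where the adjusted p was 0.05 or more and dotted lines at a 2-fold change. Ccng1 at 1.30 in aging against normal RGCs is the point beyond the dotted lines, and the Cdkn1a, Mdm2 and Glb1 intervals for that comparison cross 0.

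Of the other CDK inhibitors among the members, Cdkn1b was lower in aging RGCs and Cdkn2c higher. Cdkn1b, whose p27KIP1 protein holds cyclin E and CDK2 inactive, lies on chromosome 6 from 134920401 to 134925513 and had 67.2, 66.0 and 68.7 CPM in normal RGCs, 52.6, 56.9 and 53.3 CPM in aging RGCs and 53.3, 52.1 and 57.2 CPM in aging RGCs + USCs medium. Both treated groups lay below every normal library and overlapped each other. The level fell by 19.4% in aging RGCs (log2 fold change -0.31, standard error 0.051, adjusted p = 1.09e-05 by edgeR), and the medium left it at a log2 difference of -0.0019 from aging RGCs, with a 95% interval of -0.11 to 0.10.

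Cdkn2c, an INK4 inhibitor of CDK4 and CDK6 on chromosome 4 from 109660876 to 109667189, was the least abundant detected member. It stood at 10.4, 8.34 and 10.8 CPM in normal RGCs, 14.4, 12.8 and 13.9 CPM in aging RGCs and 10.6, 11.3 and 10.6 CPM in aging RGCs + USCs medium. All aging values lay above all others. It rose by 1.4-fold in aging RGCs (log2 fold change 0.48, standard error 0.11, adjusted p = 0.000481 by edgeR) and was 1.27-fold lower in the medium than in aging RGCs (log2 fold change -0.34, standard error 0.11, adjusted p = 0.00782 by edgeR). Of the CDK inhibitors that are not members, Cdkn2d, which encodes p19INK4d, stood at 25.9 ± 1.56 CPM in normal and 15.9 ± 1.86 CPM in aging RGCs and at 21.3 ± 1.54 CPM in the medium (SD, n = 3), with log2 fold changes of -0.71 and 0.43 that were both called. Cdkn1c, which encodes p57KIP2, was not called in aging RGCs and was lower in the medium, at 4.83 ± 0.593 against 8.10 ± 0.311 CPM (SD, n = 3).

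Cdkn2a on chromosome 4 (89274471 to 89294653, minus strand) and its neighbour Cdkn2b (89306299 to 89311039, minus strand) had an expected count of 0 in all 9 libraries. A count of 0 allows up to 3 counts, which is 0.134 to 0.165 CPM in a single library and 0.0166 CPM over all 9, counting error alone considered. By the same files 5988 genes, or 26.8%, were at 0 in every library. Mtap, an enzyme of methionine salvage whose start is 157.5 kb from that of Cdkn2a, had 3553 to 4584 counts per library, and Klhl9 at 572.2 kb had 1753 to 2073. On the other side Dmrta1, 384.8 kb away, had 2 counts over all libraries. Within 500 kb of Cdkn2a, the file has 16 protein-coding genes, Cdkn2a and Cdkn2b included. Of these 9 were at 0 in every library, namely Cdkn2a, Cdkn2b, Gm13279 and 6 interferon alpha genes, and 12 had at most 3 counts in all. Besides Mtap, Gm13285 had 315 counts over all libraries. Zero counts do not separate a silent locus from a deleted one, and genomic DNA was not measured.

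**Figure D3:**
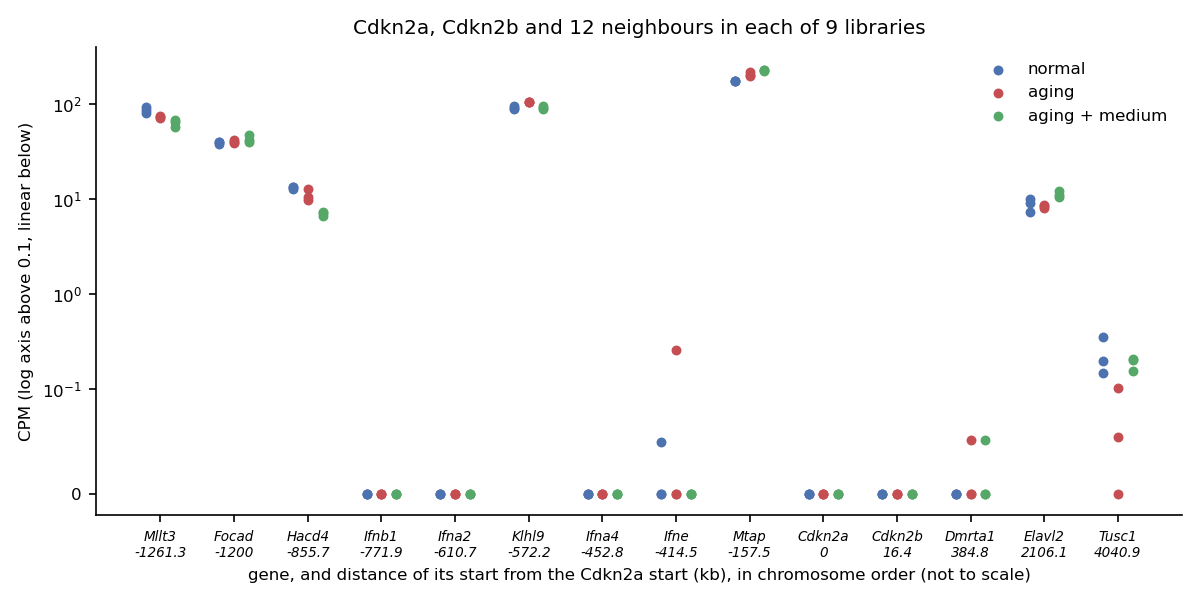
CPM of Cdkn2a, Cdkn2b and 12 neighbours on chromosome 4 in each of the 9 libraries, in chromosome order with the distance of each start from that of Cdkn2a in kb, on an axis that is logarithmic above 0.1 and linear below. Cdkn2a and Cdkn2b lie at 0 in all libraries, between Mtap at 175 to 230 CPM and Dmrta1 near 0.

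Glb1, the gene of lysosomal beta-galactosidase on chromosome 9 from 114401076 to 114474898, had 59.9, 57.7 and 58.4 CPM in normal RGCs, 60.4, 54.6 and 63.0 CPM in aging RGCs and 42.4, 44.1 and 43.8 CPM in aging RGCs + USCs medium. Normal and aging values overlapped, and the medium-treated values lay below every other library. The log2 fold change of aging against normal RGCs was 0.018, with a 95% interval of -0.091 to 0.13 and an adjusted p of 0.81 by edgeR. In the medium Glb1 was 26.8% lower than in aging RGCs (log2 fold change -0.45, standard error 0.055, adjusted p = 7.90e-08 by edgeR) and 25.9% lower than in normal RGCs (adjusted p = 8.79e-08 by edgeR). Glb1 shares 165 exonic bases with Tmppe on the same strand, which had 175 to 252.1 counts per library.

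Of 16 tested genes of the beta-galactosidase complex, lysosomal glycosidases and other lysosome-related genes, 7 were higher and 2 lower in aging RGCs. Their median log2 fold change was 0.041. The share called was 56.2%, against 46.5% of all genes. Ctsa, the protective protein that stabilises beta-galactosidase, rose by 0.50 on the log2 scale, Lamp1, a lysosomal membrane protein, by 0.46 and Gusb, beta-glucuronidase, by 0.30, while Tfeb, a transcription factor of lysosomal genes, changed by -0.30. In the medium 12 of the 16 were lower and 2 higher than in aging RGCs, with a median of -0.40 and 87.5% called against 53.1% of all genes. The largest changes among those called were in Neu1, a sialidase of the same complex, at -0.63, Hexa, a hexosaminidase, at -0.58, Gaa, acid alpha-glucosidase, at -0.58 and Manba, beta-mannosidase, at -0.57. Against the normal RGCs 8 were lower and 4 higher in the medium, 75% called against 60.5% of all genes, with 8 to 11 lower and 1 to 4 higher over the alternatives that keep the adjusted p as the sole threshold. None of the 16 changed by 2-fold in any of the comparisons. The ranges over alternatives below likewise leave out the 2-fold threshold.

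Lmnb1, on chromosome 18 from 56707813 to 56753424, had 132, 128 and 133 CPM in normal RGCs, 145, 152 and 149 CPM in aging RGCs and 175, 170.1 and 183 CPM in aging RGCs + USCs medium. The 3 groups did not overlap. It was 1.13-fold higher in aging than in normal RGCs (log2 fold change 0.18, standard error 0.038, adjusted p = 0.000249 by edgeR) and a further 1.18-fold higher in the medium (log2 fold change 0.24, standard error 0.038, adjusted p = 3.33e-06 by edgeR). In aging against normal RGCs the median absolute change of all genes was also 1.13-fold, and 6034 of the genes tested changed by more than Lmnb1. Senescent cells are recognised by loss of lamin B1, whereas this mRNA rose. The protein was not measured, and the cause was not tested.

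Among 16 further nuclear lamina and chromatin genes tied to senescence, 7 were higher and 3 lower in aging RGCs, with a median log2 fold change of 0.087 and 62.5% called against 46.5% of all genes. Hmgb2, a chromatin protein that falls in senescence, rose by 0.46, Ezh2, the H3K27 methyltransferase, by 0.39 and Cbx5, the heterochromatin protein HP1 alpha, by 0.38, while Sun2, of the inner nuclear membrane, changed by -0.37. In the medium 10 were higher and 3 lower than in aging RGCs, with a median of 0.13 and 81.2% called against 53.1% of all genes. Over the alternatives at this threshold 6 to 10 were higher and 1 to 4 lower, and none changed by 2-fold. H2afz, the histone variant H2A.Z, was higher by 0.55, Banf1 by 0.50 and Hmgb1 by 0.49, and Sun2 stood at -0.56. Against normal RGCs 13 were higher and 2 lower in the medium, 93.8% called against 60.5% of all genes. Over the alternatives at this threshold 11 to 13 were higher and 2 lower there.

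The 34 tested p53 target genes other than the members split in both directions in aging RGCs, with 15 higher and 9 lower and a median log2 fold change of 0.14. The share called was 70.6%, against 46.5% of all genes. The 2 that changed by 2-fold, as 2.65% of all genes did, were both lower. They were Gdf15, a secreted stress cytokine, which fell from 24.8 to 8.17 CPM (a log2 change of -1.60, edgeR adjusted p = 2.48e-14), and Gadd45a, a growth arrest gene, which fell from 18.5 to 6.63 CPM (a log2 change of -1.48, edgeR adjusted p = 1.38e-10). Plk3, a stress-responsive kinase, and Sesn2, a sestrin that restrains mTORC1, were also lower, at -0.92 and -0.80. Ckap2, a mitotic spindle protein, and Pidd1, a death-domain adaptor, were the most increased, at 0.83 and 0.83.

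In aging RGCs + USCs medium against aging RGCs, 11 of the 34 were higher and 15 lower, with a median of -0.034 and 76.5% called against 53.1% of all genes. Over the alternatives at this threshold 9 to 11 were higher and 11 to 17 lower. In the main fit 1 in each direction changed by 2-fold, as 5.44% of all genes did in either direction. Plk3 was higher by 1.02, Pmaip1, which encodes the pro-apoptotic NOXA, by 0.69, Dgka, a diacylglycerol kinase, by 0.68 and Gadd45a by 0.68, while Btg2, an antiproliferative gene, changed by -0.66. Ptprv, a phosphatase, had 10 to 15 counts per aging library and 1 to 2 counts per medium-treated library, and its call was lost in limma on log2(FPKM + 1). Against normal RGCs 12 were higher and 8 lower in the medium, 58.8% against 60.5% of all genes (6 to 14 and 7 to 9 over the alternatives at this threshold), among them Gdf15 at -1.07, Gadd45a at -0.80, Btg2 at -0.76, Psrc1 at 0.78 and Ckap2 at 0.77.

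**Figure D4:**
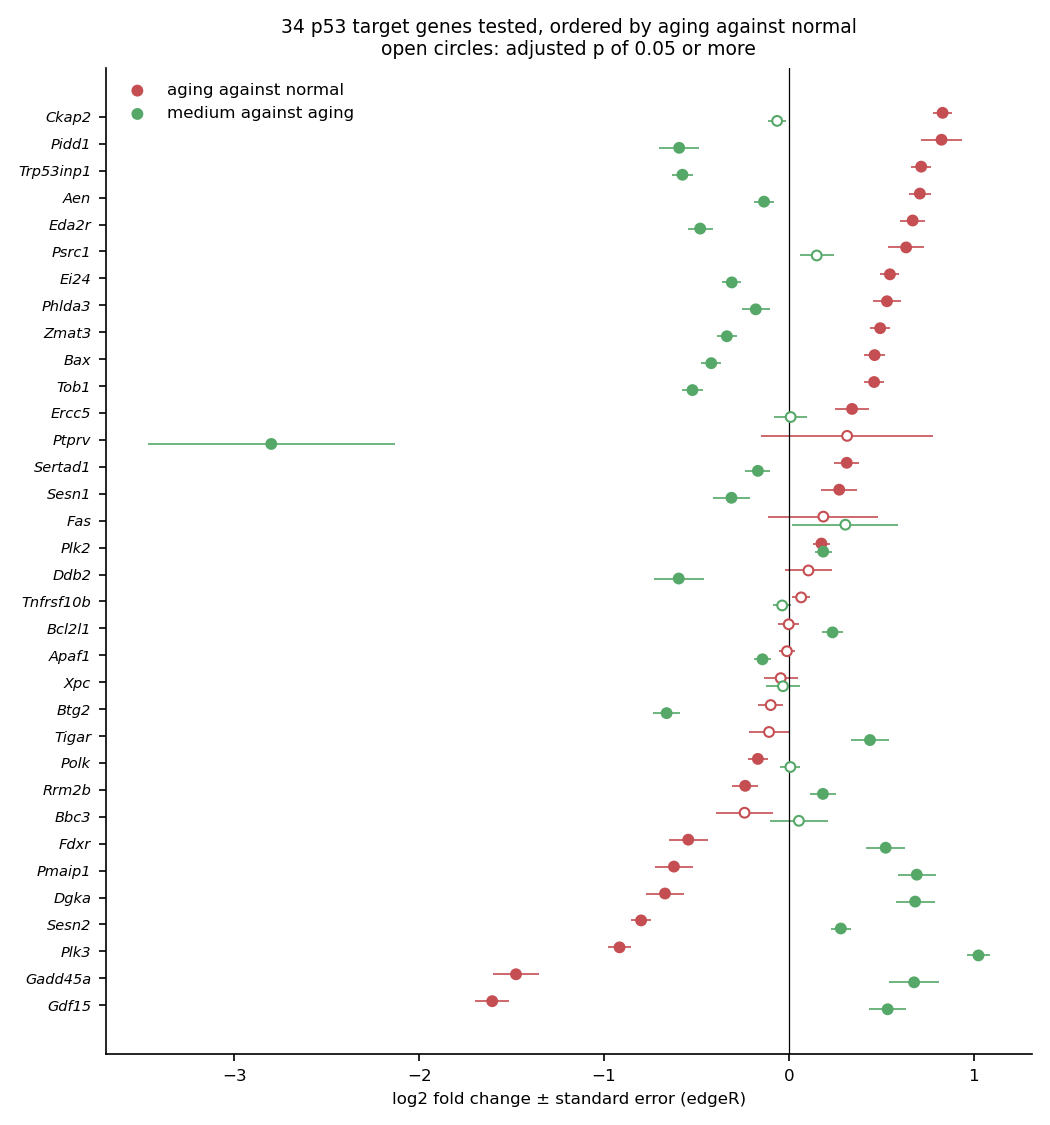
Log2 fold change with its standard error from edgeR for the 34 tested p53 target genes, with aging against normal RGCs in red and the medium against aging RGCs in green, with open circles where the adjusted p was 0.05 or more. Aging RGCs range from -1.60 for Gdf15 to 0.83 for Ckap2.

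Of 13 tested regulators and relatives of p53, 3 were higher and 2 lower in aging RGCs, 38.5% against 46.5% of all genes. Atm, Chek1 and Atr, kinases of the DNA damage response, rose by 0.55, 0.33 and 0.32 on the log2 scale, and Mdm4, the partner of MDM2, changed by -0.26. In the medium 3 were higher and 4 lower than in aging RGCs, 53.8% against 53.1% of all genes, or 1 to 4 and 4 to 5 over the alternatives at this threshold. Neither of these 2 shares stands far from that of all genes. Ppm1d, the phosphatase that ends the p53 response, was higher by 0.58, Rchy1, a ubiquitin ligase for p53, stood at -0.32 and Atm at -0.31. Against normal RGCs 7 were higher and 4 lower in the medium, 84.6% called against 60.5% of all genes. Over the alternatives at this threshold 3 to 7 were higher and 3 to 6 lower there.

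All 14 cyclins, CDKs, RB and E2F genes of G1 could be tested, and 9 were higher and 3 lower in aging RGCs, with a median log2 fold change of 0.27 and 85.7% called against 46.5% of all genes. Ccne2 and Ccne1, the E cyclins that drive entry into S phase, rose by 0.93 and 0.40, Ccnd1, cyclin D1, by 0.36 and E2f1, the transcription factor held by RB, by 0.35. In the medium 4 were higher and 4 lower than in aging RGCs, 57.1% against 53.1% of all genes, or 0 to 4 and 4 to 7 over the alternatives at this threshold, with E2f1 at -0.35, Rb1 at -0.33 and Ccnd1 at -0.27. Against normal RGCs 7 were higher and 3 lower in the medium, 71.4% called against 60.5% of all genes. Over the alternatives at this threshold 6 to 7 were higher and 3 lower there.

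The 18 proliferation genes were all higher in aging than in normal RGCs, with a median log2 fold change of 0.44, and all 18 were called under every alternative that kept the adjusted p as the sole threshold, where 46.5% of all genes were called. None of them changed by 2-fold. Mcm5, of the replicative helicase, rose by 0.69, Rrm2, a subunit of ribonucleotide reductase, by 0.60, Ccna2, cyclin A2, by 0.60 and Ccnb1, cyclin B1, by 0.50. In the medium 9 were higher and 1 lower than in aging RGCs, with a median of 0.096 and 55.6% called against 53.1% of all genes, but with library totals in place of TMM factors the counts were 5 and 2, and in limma on log2(FPKM + 1) they were 4 and 2. Rrm2 was higher in the medium by a further 0.65. Against normal RGCs all 18 were called higher in the medium, where 60.5% of all genes were called, and 1 changed by 2-fold, as 6.72% of all genes did. Neither the paper nor the labels give the density of the cultures at harvest.

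Of 28 tested genes of the senescence-associated secretory phenotype (SASP), the cytokines, proteases and growth factors that senescent cells release, 3 were higher and 9 lower in aging RGCs, with a median log2 fold change of -0.12. The share called was 42.9%, below the 46.5% of all genes. Vegfa and Spp1, a growth factor and osteopontin, were lower at -0.65 and -0.56, and Mmp10, a stromelysin, was higher at 0.56. Il6, the cytokine most often measured as SASP, stood between 0.526 and 0.578 CPM as group means and was not called in any comparison.

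In the conditioned medium 16 of the 28 were lower and 5 higher than in aging RGCs, with a median of -0.64 and 75% called against 53.1% of all genes. Over the alternatives at this threshold 2 to 6 were higher and 13 to 17 lower. With the 2-fold threshold 2 were higher and 9 lower, where 5.44% of all genes passed it in either direction. Mmp3, a stromelysin, went from 28.8 to 1.07 CPM (a log2 change of -4.75, edgeR adjusted p = 1.79e-20), Mmp9, a gelatinase, from 16.2 to 1.93 CPM (-3.07) and Ccl20, a chemokine, from 8.09 to 1.01 CPM (-2.99). Mmp10 fell by 2.33 on the log2 scale. In normal RGCs the means were 31.4 CPM for Mmp3, 15.2 for Mmp9, 5.59 for Ccl20 and 23.5 for Mmp10. Against normal RGCs 17 of the 28 were lower and 3 higher in the medium, 71.4% called against 60.5% of all genes. Their median there was -0.53. With the 2-fold threshold 12 were lower and 0 higher, where 6.72% of all genes passed it in either direction. Some of the 12 had few counts, such as Igfbp4 with 45 to 55 per normal library and 3 to 10 per medium-treated library. Over the alternatives at the adjusted p alone 16 to 18 were lower and 2 to 4 higher.

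**Figure D5:**
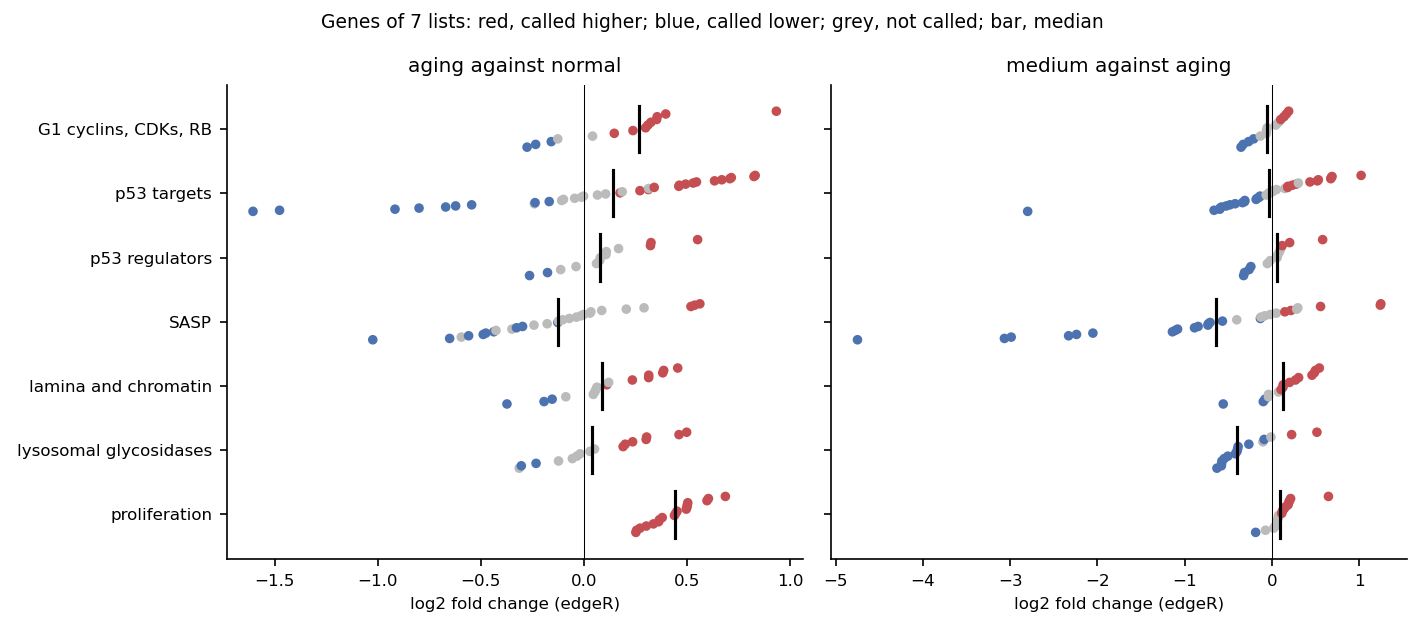
Log2 fold change from edgeR of every tested gene in 7 lists around the members, with aging against normal RGCs on the left and the medium against aging RGCs on the right, with red for genes called higher, blue for genes called lower, grey for genes not called and a black bar at the list's median. The medians run from -0.12 for the SASP genes to 0.44 for the proliferation genes on the left, and from -0.64 for the SASP genes to 0.13 for the lamina and chromatin genes on the right.

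Compared per transcript length, as FPKM, Trp53 was the most abundant member in each group, with means of 180.4 in normal RGCs, 213.8 in aging RGCs and 173.1 in aging RGCs + USCs medium. In normal RGCs it was followed by Cdkn1a at 154.6, Ccng1 at 65.7, Lmnb1 at 47.4, Mdm2 at 36.9, Glb1 at 25.1, Cdkn1b at 23.1 and Cdkn2c at 5.27, and no neighbours in that order overlapped. In aging RGCs Ccng1 at 158.9 stood level with Cdkn1a at 155.3, whose libraries overlapped it, and the rest kept their order. In the medium Cdkn1a at 133.1 was again above Ccng1 at 107.4, and Cdkn1b at 17.9 and Glb1 at 17.4 overlapped.

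Over the 9 libraries, the genes whose log2 CPM followed Cdkn1a most closely were Arhgef28 (Pearson r = 0.961), Myo1e and Ralgps1 (both 0.956), Scmh1 (0.955) and Kat2b (0.955). For Lmnb1 they were Nln (r = 0.992), Larp4 (0.991), Smc6 (0.991), Klhdc4 (0.990) and Supt16 (0.988). The libraries form 3 groups, so these values mostly describe a like order of group means and are given without a test.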

How the data were processed

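The data are RNA-sequencing values of 9 libraries, grouped by their labels. The concentration of D-galactose came from the text of the paper. For every gene, per library, the authors deposited its expected count, which estimates reads and carries no normalization, and an FPKM value, which is scaled by length and depth. RNA was extracted with Trizol and enriched for poly(A) by oligo(dT). The submitters' processing notes name the build mm10, and the aligner and the counting program are not named there or in the paper.

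Between 6.92% and 7.38% of the expected counts in a library were not whole, and all were rounded. Library totals ran from 19814236 to 22342283 (normal), from 18189610 to 19556335 (aging) and from 20238813 to 21054300 (USCs medium), so counting error limits mainly the genes of low level. The filter filterByExpr of edgeR 4.0.16 (R 4.3.3) left 12145 genes, so 45.6% were not tested. One model with a mean per group and TMM factors (0.9562 to 1.034) served every contrast. It left 6 residual degrees of freedom, and the biological coefficient of variation was 3.78%. P-values came from edgeR's quasi-likelihood F test and were adjusted by Benjamini-Hochberg. The method was also run on counts simulated from the spread fitted here, with far fewer genes changed than were called in the data. That run therefore does not bear on how the scaling acts on these data. Coordinates and exons are from GENCODE M21 on GRCm38, where 22267 of 22322 identifiers matched.

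The members and the gene lists were chosen with earlier results of these data known. Besides the members, the text names from each list the genes changed by 2-fold and, where there are fewer than 4, those with the largest called change, to at most 4 per list and 6 for the p53 targets, and the 5 genes most like Cdkn1a and Lmnb1. Alternatives were DESeq2 1.42.0, library totals without TMM, all genes unfiltered or those at 1 CPM in 3 libraries, a fit to just the pair of groups, a replicate block, a 2-fold threshold, limma 3.58.1 on FPKM (log2, with 1 or 0.1 added), and leaving out every library once. Staining, flow cytometry and viability assays are not analysed here. One gene of a list that the rule would name is not reported here.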

Additional observations from a re-analysis of the deposited data

How the results depend on the processing

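No call of a member was lost or reversed under any alternative other than the 2-fold threshold, which left 1 member higher and 0 lower in aging against normal RGCs and 0 in either direction in the other comparisons. Over all genes that threshold left 132 higher and 190 lower in aging against normal RGCs, 150 and 511 in the medium against aging RGCs, and 179 and 637 in the medium against normal RGCs. With each library left out in turn, the members called in aging RGCs were 4 to 5 higher and 1 lower, in the medium against aging RGCs 1 higher and 5 lower, and in the medium against normal RGCs 2 higher and 3 lower. The scaling moved the split of calls in the medium. Against aging RGCs 51.1% of calls over all genes were higher, but 35.8% without TMM factors and 37.7% and 37.6% in limma on log2(FPKM + 1) and log2(FPKM + 0.1), which called 2069 and 2084 genes higher. Against normal RGCs the shares were 50.6%, 34.7%, 36.3% and 36.2%, with 2367 and 2377 genes called higher in limma, and the median of all genes moved by -0.0784 and -0.100 in those comparisons without TMM factors.

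The fold changes that crossed 0 belonged to members that were not called. In aging against normal RGCs they were Cdkn1a (0.0058 and 0.0059 in limma at the pseudocounts 1 and 0.1, and -0.0461 to 0.025 with a library left out) and Glb1 (-0.0045 without TMM factors, -0.0070 and -0.0074 in limma, and -0.0282 to 0.0713 with a library left out). In the medium against aging RGCs it was Cdkn1b (0.0031 in DESeq2, 0.0039 without the low-count filter, and -0.0382 to 0.0359 with a library left out). In the medium against normal RGCs they were Cdkn2c (-0.0385 and -0.0448 in limma), Trp53 (-0.0591 without TMM factors, -0.0590 and -0.0593 in limma) and Mdm2 (-0.0815 without TMM factors, -0.0781 and -0.0800 in limma, and -0.0343 to 0.062 with a library left out). Mdm2 was called lower in the medium than in aging RGCs without TMM factors (-0.1358, adjusted p = 0.0118 by edgeR) and in limma (-0.1340 and -0.1373), and its fold change over the alternatives that left out a library ran from 0.0203 to 0.1165 in aging RGCs. The cause was not tested.

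The deviations of libraries that carry the same number in 2 groups correlated between -0.0368 and 0.0479, which gives no pairing. With the replicate number as a block, 2857 genes were higher and 2783 lower in aging RGCs, 3286 and 3146 in the medium against aging RGCs, and 3706 and 3617 in the medium against normal RGCs, and no call of a member changed.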

Other observations

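The pathway terms deposited with the table were also counted, after the values of the members had been seen. Of 66 tested genes under p53 signaling pathway, 27 were higher and 16 lower in aging than in normal RGCs, a called share of 65.2% against 46.5% of all genes, and their median log2 fold change was 0.11. In the medium 19 were higher and 25 lower than in aging RGCs, 66.7% against 53.1%, with a median of -0.024. Of 143 tested genes under Cellular senescence, 52 were higher and 37 lower in aging RGCs, or 62.2%, with a median of 0.050, and 46 were higher and 38 lower in the medium than in aging RGCs, or 58.7%, with a median of 0.036. Each term holds 4 of the members.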
